A study of Mus musculus with 8 samples.

Results

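The simple epithelial keratins are the intermediate filament proteins of single-layered epithelia, and 6 of their genes were taken by symbol from the expression table: *Krt7*, *Krt8*, *Krt18*, *Krt19*, *Krt20* and *Krt23*. All 6 were listed, of 23467 genes in all. The table came from RNA sequencing of mouse liver cells of the B6;129 mixed strain that were taken from E14.5 fetal livers and cultured. Hepatoblasts, the bipotent progenitors of the fetal liver, were grown on collagen (iHB), given oncostatin M at 12.5 ng/ml for 5 days to make hepatocytes (iHP), or kept on Matrigel for 14 days to make biliary epithelial cells (iBEC). The controls were labelled wild type, and the other libraries, called L1L2_Alb here, were labelled Lats1-/-;Lats2f/fl;Alb-cre.

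There was 1 control library at each of the 3 stages, 1 library labelled L1L2_Alb from iHBs, 2 from iHPs and 2 from iBECs. LATS1 and LATS2 are the kinases of the Hippo pathway that phosphorylate and restrain YAP and TAZ, the coactivators of the TEAD transcription factors. The *Lats1* deletion was present in every cell of the animal, whereas Cre under the Albumin promoter removed *Lats2* in cells that express Albumin. Nothing in the labels says whether the libraries of one condition came from separate embryos or cultures, so the spread between them may be technical. Only iHPs and iBECs labelled L1L2_Alb had a second library. The p-values for genotype and stage rest on that spread and on how far the genotype difference varied between stages. No spread between controls of one stage enters them. The values of a gene are in RPKM, read counts scaled for transcript length and library size, so genes of different length can be compared within a library.

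Keratin filaments are built from pairs of 1 type I and 1 type II protein. *Krt7* and *Krt8* encode type II keratins, and *Krt18*, *Krt19*, *Krt20* and *Krt23* encode type I keratins. In the liver, hepatocytes carry only the KRT8 and KRT18 pair, and bile duct cells add KRT7 and KRT19, which makes these the usual histological markers of the biliary lineage. KRT20 is best known from gut and urothelium, and KRT23 is a less studied type I keratin.

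Windows of 250 bases before the RefSeq start (build GRCm38.p6) were held for 5 of the 6 genes, all but *Krt19*. Those of *Krt7*, *Krt8* and *Krt20* are shown. *Krt7* had the highest log2 fold change with genotype of the 6, *Krt8* encodes the type II keratin of hepatocytes, and the *Krt20* window stood apart in its motifs. Capitals mark, on either strand, GGAATG, the core bound by TEAD factors, TGANTCA, bound by AP-1, and TATAAA, the TATA box. The *Krt7* window lies at chr15:101412153-101412402, plus strand, that of *Krt8* at chr15:102004343-102004592, minus strand, and that of *Krt20* at chr11:99438154-99438403, minus strand.
Krt7: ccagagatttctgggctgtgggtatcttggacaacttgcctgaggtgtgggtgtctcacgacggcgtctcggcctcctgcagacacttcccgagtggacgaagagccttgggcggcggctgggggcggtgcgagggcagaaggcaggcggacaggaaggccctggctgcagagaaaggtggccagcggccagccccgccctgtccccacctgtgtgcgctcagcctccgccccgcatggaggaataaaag
Krt8: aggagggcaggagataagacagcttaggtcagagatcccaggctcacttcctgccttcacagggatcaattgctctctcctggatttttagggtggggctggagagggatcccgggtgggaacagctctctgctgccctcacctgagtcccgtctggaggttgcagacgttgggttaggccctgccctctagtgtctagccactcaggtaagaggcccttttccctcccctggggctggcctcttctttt
Krt20: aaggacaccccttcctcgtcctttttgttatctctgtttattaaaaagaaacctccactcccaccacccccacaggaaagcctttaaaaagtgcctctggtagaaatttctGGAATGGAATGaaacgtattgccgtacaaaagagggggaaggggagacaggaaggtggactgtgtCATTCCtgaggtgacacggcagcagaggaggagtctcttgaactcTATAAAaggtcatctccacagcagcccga

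The *Krt20* window held GGAATG 3 times, with first bases at -139, -134 and -74 relative to the start, the first pair overlapping by their shared end base. It also held a TATA box at -29. At least 1 GGAATG was found in 12.64% of 32817 windows of the same length from all genes, 3 or more in 0.08837%, and TATAAA in 12.37%. No GGAATG was found in the windows of *Krt7*, *Krt8*, *Krt18* and *Krt23*, which says only that these letters are not there. The same held for TATAAA in these windows and for TGANTCA, found in 6.753% of all windows, in all 5. A match in letters is a description and not a shown binding site. As the values below give, *Krt7*, with no such match, had the highest log2 fold change with genotype among the 6 keratins, and *Krt20*, with 3, the lowest. Whether such matches bear on the change was not tested, no bases outside these windows were searched, and *Krt19* had no window.

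The libraries held 18436865 to 33229075 reads, as recovered from the step sizes of the RPKM values. *Lats1* was at 5.38 to 11.2 RPKM in the controls and at 7.12 to 22.7 RPKM in the libraries labelled L1L2_Alb, and *Lats2* at 6.90 to 10.1 and 10.9 to 27.6 RPKM. *Lats1* was above the control of its stage in 4 of 5 libraries labelled L1L2_Alb and below it in the second iHP library, and *Lats2* was above it in 5 of 5. A value for a whole gene cannot show the loss of some exons, so the table does not check the genotype. Among markers of the labelled cell types, the biliary gene *Spp1* (osteopontin) was at 23271 RPKM in control iBECs against 1706 RPKM in control iHBs. Its log2 fold change between iBECs and iHBs over both genotypes was 3.99 (adjusted p = 0.00193 from limma), and it was the only 1 of 14 tested biliary markers other than keratins called in that comparison. The hepatocyte gene *Fgb* (fibrinogen beta chain) was at 10898 RPKM in control iHPs and 15089 RPKM in control iBECs, and between iBECs and iHBs 5 of 12 tested hepatocyte markers were called higher and 1 lower, against 2.94% and 2.78% of all tested genes.

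*Krt8* and *Krt18* were the most abundant of the 6, with means over the 8 libraries of 1506 and 1359 RPKM, which put them at ranks 63 and 78 of all genes. *Krt7* followed at a mean of 713 RPKM, *Krt19* at 301 RPKM, *Krt20* at 168 RPKM and *Krt23* at 3.45 RPKM. All 6 passed the filter of a mean of at least 1 RPKM, under which 13421 genes were tested. *Krt8* and *Krt18* did not differ in order consistently, with *Krt8* higher in 5 and lower in 3 libraries. *Krt8* and *Krt18* are known to have processed pseudogenes, and how reads shared with such copies were counted is not given in the sources used here, so their levels carry that uncertainty.

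*Krt7*, a type II keratin of bile ducts, was at 399.6, 361 and 62.3 RPKM in control iHBs, iHPs and iBECs. In the libraries labelled L1L2_Alb it was at 1470 RPKM in iHBs, at 1361 and 1167 RPKM in iHPs, and at 319 and 568 RPKM in iBECs. Each stood above the control of its stage, by 3.68-fold to 9.11-fold, and the iBEC libraries lay on either side of the iHB and iHP controls. In a limma fit with the stage as a block, its log2 fold change was 2.17 (95% confidence interval 1.54 to 2.80, adjusted p = 0.00422), the 87th highest of the 13421 genes tested.

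*Krt19*, the smallest keratin and a type I partner in bile ducts, was at 273, 168 and 83.7 RPKM in the controls of the 3 stages in the same order. With the genotype labelled L1L2_Alb it was at 400.2 RPKM in iHBs, at 377 and 493 RPKM in iHPs, and at 254 and 355 RPKM in iBECs. The difference was smallest in iHBs, at 1.47-fold, and largest in iBECs, where it reached 4.24-fold. The fit gave a log2 fold change of 1.31 (95% confidence interval 0.71 to 1.90, adjusted p = 0.0205 from limma). Without the iBEC stage its log2 fold change was 1.01 with an adjusted p of 0.0909, and without the iHP stage, which leaves 5 libraries, it was 1.28 with an adjusted p of 0.152. Without the iHP stage the log2 fold change of *Krt7* was 2.38 and its adjusted p 0.0500064, just past the threshold. With no filter on low values *Krt19* lost it as well (adjusted p = 0.0563 from limma).

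*Krt8*, the type II keratin of all simple epithelia, was at 1774, 1335 and 400.3 RPKM in control iHBs, iHPs and iBECs. It was at 2625 RPKM in iHBs labelled L1L2_Alb, at 1822 and 2261 RPKM in iHPs, and at 632 and 1198 RPKM in iBECs. *Krt18*, its type I partner, was at 1202, 1132 and 485 RPKM in the controls. In the libraries labelled L1L2_Alb *Krt18* was at 2218 RPKM in iHBs, at 1961 and 2089.9 RPKM in iHPs, and at 674 and 1112 RPKM in iBECs. Both were above the control of their stage in 5 of 5 libraries, by 1.37-fold to 2.99-fold for *Krt8* and by 1.39-fold to 2.29-fold for *Krt18*. Neither passed the test, with log2 fold changes of 0.78 for *Krt8* (95% confidence interval 0.16 to 1.41, adjusted p = 0.112 from limma) and 0.85 for *Krt18* (0.33 to 1.37, adjusted p = 0.0542). *Krt18* lay close to the threshold and passed it in 5 of 14 alternative settings, among them without the first iBEC library labelled L1L2_Alb (adjusted p = 0.0487), while *Krt8* passed in 1 of 14.

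*Krt20*, the keratin of intestinal and urothelial surface cells, was at 201, 184 and 41.8 RPKM in control iHBs, iHPs and iBECs. In the libraries labelled L1L2_Alb it was at 265 RPKM in iHBs, at 246 and 194 RPKM in iHPs, and at 74.7 and 137 RPKM in iBECs. One iHP library lay only 1.06-fold above its control, while the iBEC libraries reached 3.27-fold. Its log2 fold change was 0.66 (95% confidence interval 0.03 to 1.28, adjusted p = 0.173 from limma) and it passed in none of 14 alternative settings. Of 10 listed gut and urothelial markers, 4 were under 1 RPKM in every library. These were *Cdx1* and *Cdx2*, which encode intestinal transcription factors, and the urothelial plaque genes *Upk2* and *Upk3a*, all named after their values were seen. *Tff3*, the most abundant of the list, was at 6.11 to 215 RPKM in controls and 41.6 to 425 RPKM in the libraries labelled L1L2_Alb. Its log2 fold change with genotype was 1.48 (adjusted p = 0.157 from limma), while *Cdh17* of the same list was lower, as given below. The list summed to 67.6 to 245 RPKM in controls and 95.5 to 432 RPKM in the others.

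*Krt23* was at 2.08, 1.46 and 2.60 RPKM in the controls, from 91, 63 and 133 reads. In the libraries labelled L1L2_Alb it was at 5.50 RPKM in iHBs (243 reads), at 3.31 and 2.13 RPKM in iHPs (94 and 70 reads), and at 6.13 and 4.42 RPKM in iBECs (244 and 162 reads). Its libraries overlapped across stages, and the fit gave a log2 fold change of 0.79 (95% confidence interval 0.28 to 1.30, adjusted p = 0.0617 from limma). On these counts and on the log2(RPKM + 1) scale, which understates changes of low genes, a smaller change could not be resolved. Without the second iHP library labelled L1L2_Alb it passed the test (adjusted p = 0.0382 from limma).

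**Figure D1:**
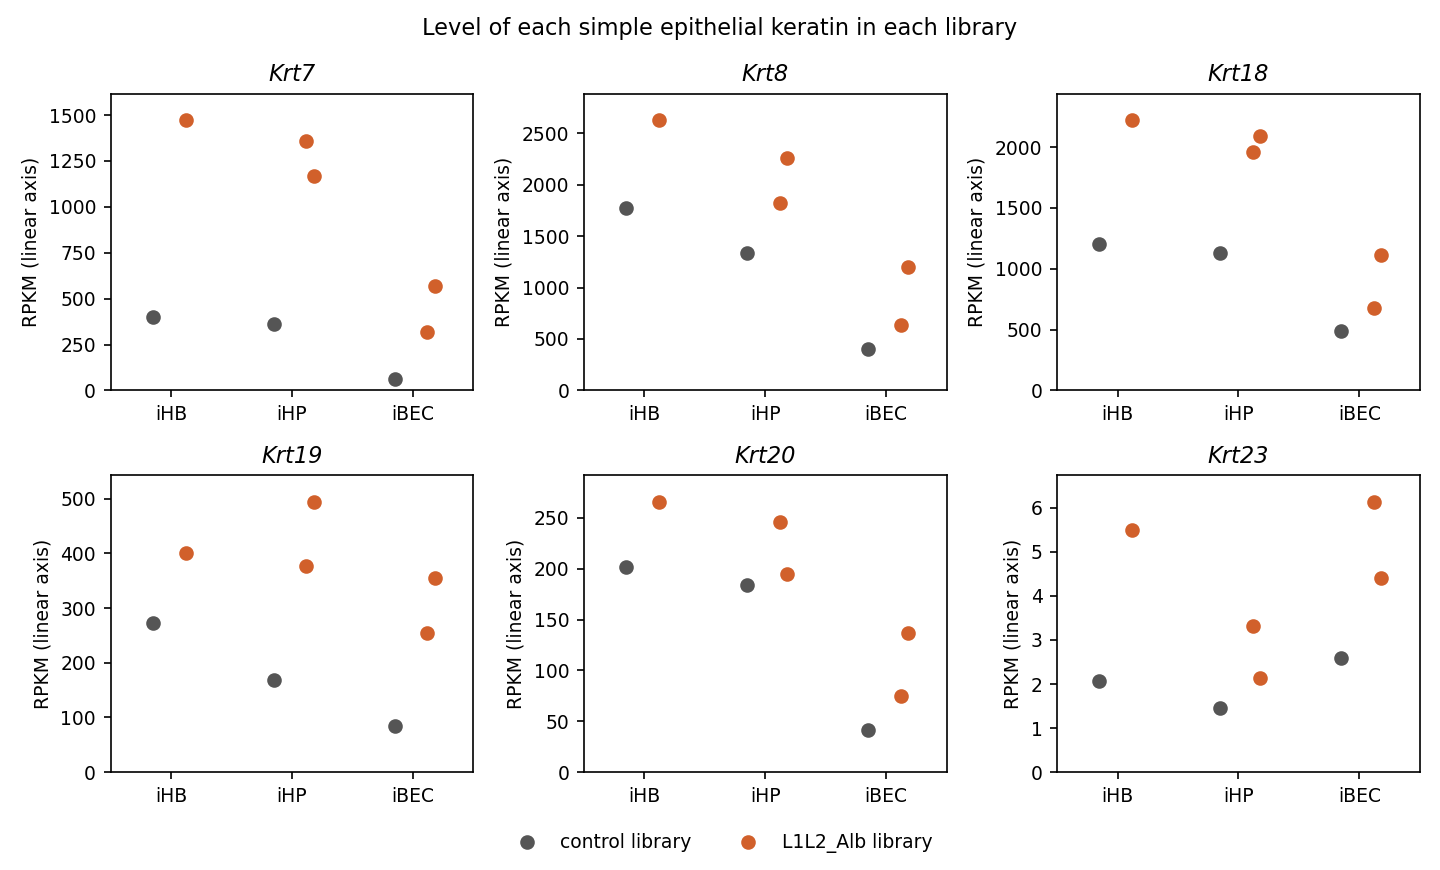
RPKM (linear axes from 0, each panel on its own scale) of each keratin in every library, by culture stage, with 1 point per library and no averaging. In every panel each library labelled L1L2_Alb sits above the control of its stage, and the iBEC points of Krt7, Krt8, Krt18 and Krt20 sit low.

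All 6 keratins were thus higher in 5 of 5 libraries labelled L1L2_Alb than in the control of their stage, a pattern shown by 22.9% of all tested genes, while 10.1% were lower in all 5. By the test 2 of 6 were called higher and none lower, against a background of 6.2% of tested genes called higher and 3.37% called lower. The call depended on scaling in number but not in direction. Upper-quartile scaling called the same pair, and quantile normalization called 5, all but *Krt20*. Over all genes, 832 were called higher and 452 lower, and this split became 586 and 607 with upper-quartile scaling and 687 and 607 with quantile normalization. The median log2 fold change of all tested genes was 0.06, which is small beside those of the keratins.

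**Figure D2:**
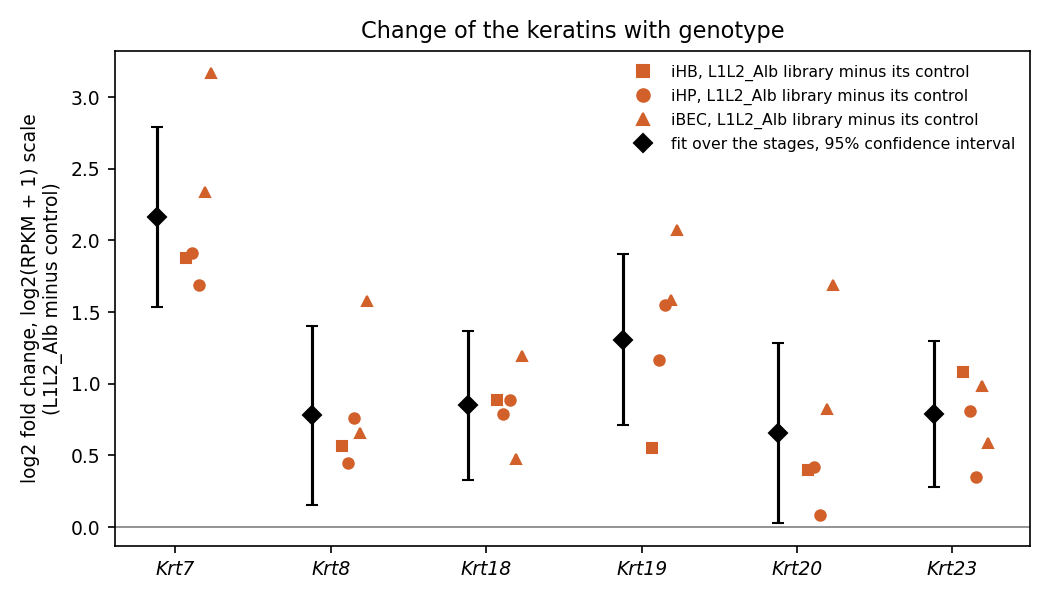
Log2 fold change on the log2(RPKM + 1) scale (y axis) for each keratin (x axis), with each library labelled L1L2_Alb minus its control as a coloured symbol and the limma estimate over the stages with its 95% confidence interval in black. Every symbol lies above 0, the Krt7 symbols lie highest, and the Krt20 symbols come closest to 0.

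Because 1 control was shared by both L1L2_Alb libraries of a stage, a shift in that control moves both differences. The genotype difference of *Krt7* was 1.88 on the log2 scale in iHBs, 1.91 and 1.69 in iHPs, and 2.34 and 3.17 in iBECs. That of *Krt8* was 0.57, then 0.45 and 0.76, then 0.66 and 1.58. In the second iBEC library *Krt7*, *Krt8*, *Krt18*, *Krt19* and *Krt20* all had their largest difference. The median over all tested genes was also highest there, at 0.26, against 0.22 in the first iBEC library and -0.09 in iHBs. A moderated F test of whether the genotype effect differed between stages called 0 of 13421 genes, with 733 at an unadjusted p under 0.05, and the unadjusted p-values of the keratins ran from 0.212 for *Krt19* to 0.998 for *Krt18*. A difference between stages in the size of the change was not detected for any of the 6.

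The second of the 2 iBEC libraries labelled L1L2_Alb held more keratin RNA than the first, 1.78 times as much *Krt7*, 1.90 times *Krt8*, 1.65 times *Krt18*, 1.40 times *Krt19* and 1.83 times *Krt20*, but 0.721 times as much *Krt23*. In the iHP pair the ratios of the 5 abundant keratins lay closer to 1 and went both ways, from 0.789 for *Krt20* to 1.31 for *Krt19*, while that of *Krt23* was 0.644. The spread between libraries of one condition was thus shared by the 5 abundant keratins in iBECs. In bulk samples, fewer cells of a type and less RNA per cell cannot be told apart.

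Within a library, the biliary keratins can be set against the general pair without the depth or the other genes entering. The ratio of *Krt7* to *Krt8* was 0.225, 0.271 and 0.156 in control iHBs, iHPs and iBECs, and 0.560, 0.747, 0.516, 0.504 and 0.474 in the libraries labelled L1L2_Alb. The groups did not overlap, and the log2 ratio was higher by 0.93 to 1.70, with a mean of 1.40 ± 0.30 (SD, n = 5 differences that share 3 controls). The ratio of *Krt19* to *Krt18* was 0.227, 0.148 and 0.173 in the controls, and 0.180, 0.192, 0.236, 0.376 and 0.320 in the others. Here the groups overlapped, since the iHB library labelled L1L2_Alb lay below its control, and the log2 difference ran from -0.33 to 1.12. Its mean was 0.54 ± 0.56 (SD, n = 5). The rise with genotype of biliary relative to general keratin RNA was therefore larger and steadier for *Krt7* than for *Krt19*. The ratio of *Krt8* to *Krt18* changed by -0.34 to 0.38 on the log2 scale, with a mean of -0.04 ± 0.32 (SD, n = 5), and so did not move in one direction. As the members were chosen with results known, no test was made of these ratios or of the shares below. How often other genes or gene pairs separate the groups in this way was not counted.

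**Figure D3:**
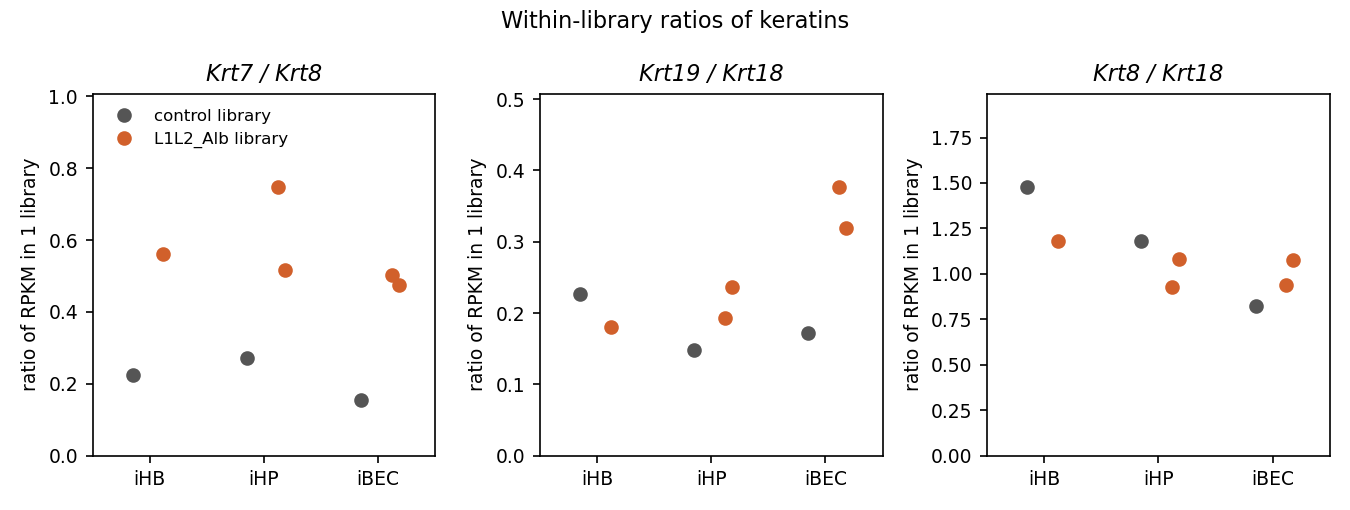
Ratio of RPKM between 2 keratins of the same library (y axis, linear from 0) by culture stage, 1 point per library. The Krt7 to Krt8 ratio is at 0.474 to 0.747 in the libraries labelled L1L2_Alb against 0.156 to 0.271 in the controls, while the groups overlap for Krt19 to Krt18 and for Krt8 to Krt18.

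Summed over the 6 genes, keratin RNA was at 3851, 3181 and 1076 RPKM in control iHBs, iHPs and iBECs. It was at 6984 RPKM in iHBs labelled L1L2_Alb, at 5771 and 6207 RPKM in iHPs, and at 1959 and 3374 RPKM in iBECs. *Krt8* and *Krt18* made up most of it in every library. *Krt7* made up 5.79% to 11.4% of the sum in controls and 16.3% to 23.6% in the libraries labelled L1L2_Alb, with no overlap. *Krt8* was at 37.2% to 46.0% in controls and 31.6% to 37.6% in the others, which overlapped slightly. The share of *Krt19* was highest in the L1L2_Alb iBECs, at 12.9% and 10.5%, against 5.28% to 7.95% elsewhere. The ratio of type II to type I keratin RNA over the members was 0.755 in control iBECs and 0.943 to 1.42 in the other libraries.

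**Figure D4:**
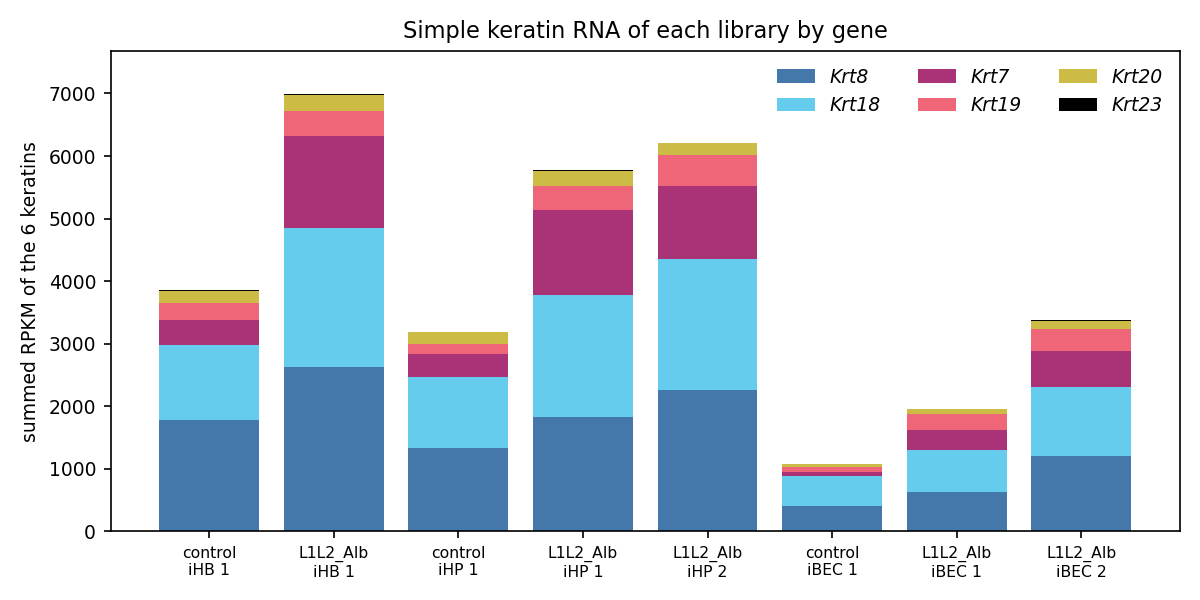
Summed RPKM of the 6 keratins in each library (stacked bars from 0), with 1 colour per gene. The bars of the libraries labelled L1L2_Alb are taller than the control of their stage, and the Krt7 band takes 16.3% to 23.6% of them against 5.79% to 11.4% in controls.

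Between stages, with genotype as a term, 4 of the 6 keratins were lower in iBECs than in iHBs and none was higher, against 2.78% of tested genes called lower and 2.94% called higher. The keratins that fell were *Krt7*, by 2.13 on the log2 scale (adjusted p = 0.0108 from limma), *Krt8*, by 1.81 (adjusted p = 0.0206), *Krt20*, by 1.71 (adjusted p = 0.0264), and *Krt18*, by 1.33 (adjusted p = 0.0324). The difference of *Krt19* was -0.97 (95% confidence interval -1.71 to -0.22, adjusted p = 0.126) and that of *Krt23* was 0.08 (95% confidence interval -0.56 to 0.71, adjusted p = 0.878). Among the controls alone, with 1 library each and no test, iHBs held 6.41 times the *Krt7* of iBECs, 4.43 times the *Krt8*, 2.48 times the *Krt18*, 3.26 times the *Krt19* and 4.82 times the *Krt20*, while iBECs held 1.25 times the *Krt23*. The biliary keratins were thus not higher in the cultures labelled biliary. The median of all tested genes was -0.25 in this comparison and -0.02 with upper-quartile scaling, under which *Krt18* lost its call (adjusted p = 0.0808 from limma). Without the first iBEC library labelled L1L2_Alb, *Krt7* alone remained called.

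Against iHPs, the same 4 keratins were lower in iBECs, against 1.67% of tested genes called lower and 2.45% called higher. *Krt7* fell by 1.88 on the log2 scale (adjusted p = 0.0171 from limma), *Krt20* by 1.44 (adjusted p = 0.0414), *Krt8* by 1.39 (adjusted p = 0.0444) and *Krt18* by 1.22 (adjusted p = 0.0385). These calls were close to the threshold, and none remained without the first iHP library or without the first iBEC library labelled L1L2_Alb. The call of *Krt8* was also lost without the second iHP library, and that of *Krt18* without the second iBEC library. *Krt19* differed by -0.68 (adjusted p = 0.212) and *Krt23* by 0.69 (adjusted p = 0.154). Both comparisons use the same iBEC libraries. In the libraries labelled L1L2_Alb alone, 2 against 2, *Krt7* differed by -1.56 between iBECs and iHPs (adjusted p = 0.0894 from limma) and *Krt19* by -0.52 (95% confidence interval -1.34 to 0.30, adjusted p = 0.486). None of the 6 was called there, against 3.67% of tested genes. Between iHPs and iHBs none of the 6 was called, as was 0% of tested genes by limma, with 1158 at an unadjusted p under 0.05. The differences of the keratins ran from -0.61 for *Krt23* to -0.11 for *Krt18*.

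**Figure D5:**
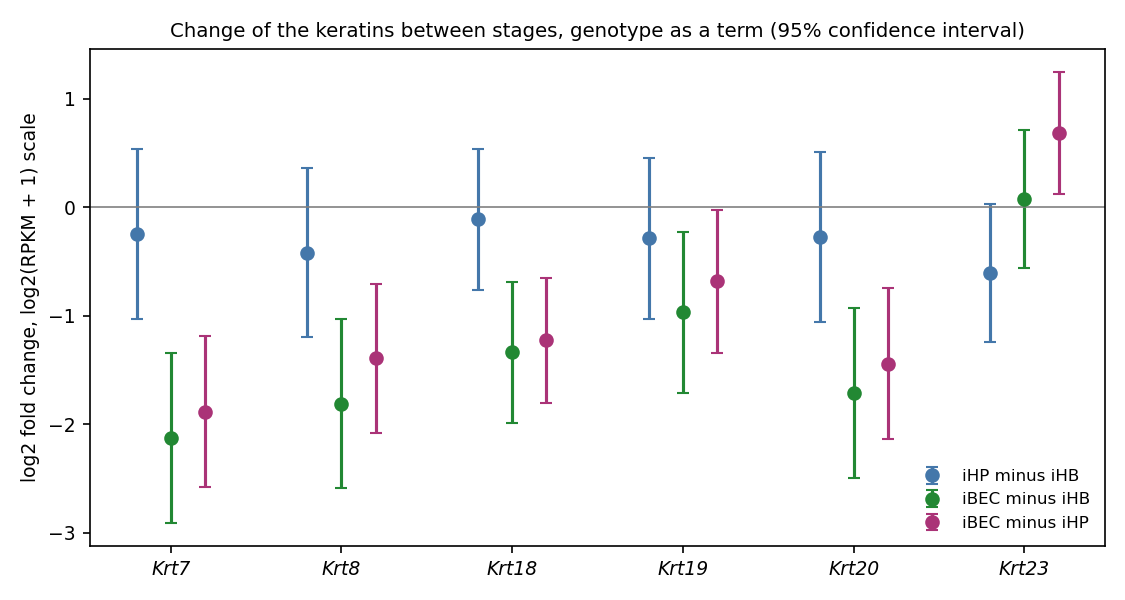
Log2 fold change between culture stages on the log2(RPKM + 1) scale (y axis) for each keratin (x axis), with 95% confidence intervals from the limma fit with genotype as a term. The iBEC intervals of Krt7, Krt8, Krt18, Krt19 and Krt20 lie wholly below 0, with Krt19 the closest to it and not called after adjustment, and the iHP minus iHB intervals include 0 for all 6.

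The other keratins, those of skin, hair and stratified epithelia, were nearly silent. Of 46 listed, 25 were under 1 RPKM in every library, 6 were at 0 throughout, and 5 reached the filter. Of the 5, 1 was called higher with genotype, against 6.2% of all tested genes. This was *Krt80*, a type II keratin, at 1.41, 1.29 and 0.611 RPKM in the controls and at 4.40 to 16.6 RPKM in the libraries labelled L1L2_Alb (log2 fold change 1.98, adjusted p = 0.00631 from limma). At an unadjusted p under 0.05 from limma were 4 of the 5, and the list median was 1.19 beside 0.06 for all genes. A rise with genotype was thus not particular to the simple keratins. The highest value of any was 23.3 RPKM of *Krt6a*, a keratin of stressed and wounded epithelia, in the second iBEC library labelled L1L2_Alb. *Krt6a* was named after its values were seen and did not pass the test (log2 fold change 2.03, adjusted p = 0.0604 from limma). It shares long near-identical stretches with *Krt6b*, so its reads may be split between them. *Krt14*, the keratin of basal squamous cells, was under 1 RPKM in every library and was named after its values were seen. With it, 5 of 10 listed squamous markers were that low. The whole list summed to 39.0 to 134 RPKM in controls and 61.2 to 166 RPKM in the libraries labelled L1L2_Alb.

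Of the genes that anchor or bind keratin filaments, 1 of 8 tested desmosomal genes was called higher with genotype, against 6.2% of all tested genes. This was *Perp*, a membrane protein of desmosomes, at 17.6 to 61.9 RPKM in controls and 69.7 to 404 RPKM in the libraries labelled L1L2_Alb (log2 fold change 2.54, adjusted p = 0.00345 from limma). The list's median was 0.33 beside 0.06 for all genes. Between iBECs and iHBs 4 of the 8 were lower and none higher, against 2.78% of all tested genes called lower, the median being -1.16 beside -0.25. Those 4, named after their values were seen, were *Perp* (-1.86), the desmosomal cadherin gene *Dsg2* (-2.56), *Dsp*, whose product desmoplakin ties keratins to the desmosome (-2.03), and *Jup*, encoding plakoglobin (-1.41).

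Of 8 tested genes of hemidesmosomes and plakin linkers none was called with genotype by limma, with 2 at an unadjusted p under 0.05 and a list median of 0.19. Their most abundant members were *Cd151*, with a log2 fold change of 1.07 (adjusted p = 0.0555), and the integrin gene *Itga6*, with 0.73 (adjusted p = 0.139). Of 12 genes for keratin-binding and keratin-modifying proteins, *Dnajb6*, a co-chaperone that binds KRT18, was called higher (0.87, adjusted p = 0.0349), and the list median was 0.16. Of 6 tested intermediate filament genes other than keratins, *Vim*, encoding vimentin, was called higher (1.26, adjusted p = 0.0167), and the list median was -0.31. The background for these counts is again 6.2% of all tested genes called higher.

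Markers of other cells moved with the same genotype contrast. Mesothelium, the covering layer of the liver, also carries simple keratins. Of 8 listed mesothelial markers 5 were tested and 3 called higher, against 6.2% of all tested genes, namely *Msln* (mesothelin), *Pdpn* and *Upk1b*, the last of which was named after its values were seen. *Msln* was at 103 to 261 RPKM in the controls and at 1032 to 3536 RPKM in the libraries labelled L1L2_Alb (log2 fold change 3.61, adjusted p = 0.00093 from limma). The summed mesothelial markers ranged from 125 to 279 RPKM in controls and from 1102 to 3641 RPKM in the others. *Msln* made up most of this sum in every library. *Wt1* (0.93, adjusted p = 0.0594 from limma) and *Upk3b* (0.53, adjusted p = 0.528) were tested but not called. *Upk3b* was lower than its control in both iHP libraries (-0.58 and -1.23) and higher in iHBs (0.68) and both iBEC libraries (1.94 and 1.78). *Lrrn4*, *Gpm6a* and *Bnc1* were under 1 RPKM in every library. *Wt1*, *Upk3b* and these genes were named after their values were seen. The part of mesothelial cells in the keratin differences was not tested.

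Of 14 tested biliary markers other than keratins none was called higher and 3 were called lower with genotype, against 6.2% and 3.37% of all tested genes, among them *Spp1* (-1.50, adjusted p = 0.0306 from limma) and the tight junction gene *Cldn3* (-1.998, adjusted p = 0.0317). The second most abundant biliary marker, *Cldn4*, had a log2 fold change of 0.61 (adjusted p = 0.141), and the list median was -0.27. The fit averages over the stages. Of the 14, 4 were lower than the control in both iHP libraries and higher in both iBEC libraries. These were *Cldn7*, *Ggt1*, *Muc1* and *Prom1*, named after their values were seen. Opposite directions in the 2 stages, either way round, were shown by 16% of all tested genes. Of 12 tested hepatocyte markers 6 were called lower and none higher, against 3.37% and 6.2% of all tested genes, with a list median of -1.43. *Fgb* changed by -1.53 (adjusted p = 0.0205) and *Ahsg*, which encodes the plasma protein fetuin-A, by -2.59 (adjusted p = 0.00415), whereas *Apoa1*, encoding the main protein of high-density lipoprotein, differed by 0.65 and did not pass.

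Markers of stellate cells and fibroblasts summed to 2701 to 4870 RPKM in controls and 747 to 3818 RPKM in the libraries labelled L1L2_Alb, with 0 of 11 tested genes called by limma and 7 at an unadjusted p under 0.05. Endothelial markers summed to 10.9 to 24.5 RPKM and 6.33 to 23.2 RPKM, with 0 of 4 tested called and 2 at an unadjusted p under 0.05. Macrophage markers summed to 1163 to 2409 RPKM and 852 to 3094 RPKM, with 0 of 7 tested called and 1 at an unadjusted p under 0.05. Of 2 tested erythroid markers *Hbb-b1* was lower (-2.09, adjusted p = 0.0335 from limma), of 4 tested gut and urothelial markers *Cdh17* was lower (-1.51, adjusted p = 0.0367), and of 3 tested squamous markers *Cnfn* was higher (2.31, adjusted p = 0.024). Over all tested genes 6.2% were called higher and 3.37% lower, with a median log2 fold change of 0.06. The list medians were -1.02 for stellate cells and fibroblasts, -0.13 for endothelium, 0.15 for macrophages and -1.74 for erythroid cells. They were -0.97 for gut and urothelium and 0.34 for squamous epithelium. Whether any of these cells contributed to the keratin values was not tested.

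By Pearson correlation of log2(RPKM + 1) over the 8 libraries, given as a description, the genes closest to *Krt7* were *Wwc1* (r = 0.994), *Sipa1l3* (0.993), *Cav1* (0.990), *Sema3c* (0.987) and *Anxa3* (0.985). Closest to *Krt19* were *Arhgef16* (0.983), *Heca*, *Wipf2*, *Snx33* and *Tspan8* (0.974). Closest to *Krt8* were *Mrps6* (0.994), *Tsnax*, *Atp13a3*, *Commd2* and *Rin3*, and to *Krt18* *Pgam5* (0.996), *Ctnna1*, *Nras*, *Pik3cb* and *Kif13a*. Closest to *Krt20* were *C1qbp* (0.989), *Crlf3*, *Hipk2*, *Arid3b* and *Eif2b5*, and to *Krt23* *Dlg5* (0.951), *Slc39a13*, *Cxx1a*, *Pcolce* and *Tigd2*. Among the keratins themselves, *Krt8* went most closely with *Krt20* (0.971) and *Krt18* (0.968), and *Krt7* with *Krt18* (0.949) and *Krt19* (0.937). *Krt23* stood apart, with r between -0.12 and 0.31 to the other 5. The 8 points share stages, genotypes and depth, so high values are common among genes.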

How the data were processed

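RNA of the 8 libraries was prepared with the TruSeq RNA v2 kit and sequenced on a HiSeq instrument. The submitters' processing notes name Bowtie 0.12.2 and mm8, without their roles; how reads were counted and normalized is not given in the sources used here. The deposited values are taken as RPKM, since value times length of short RNA genes falls in whole steps, which gave 18436865 to 33229075 reads per library. The authors' stated further step was a log2 transform. The labels give 5 days of oncostatin M and the study's methods 6.

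Of 23471 entries, 4 of 2 repeated symbols were left out. limma 3.58.1 (R 4.3.3; eBayes with trend) was run on log2(RPKM + 1) for 13421 genes, those averaging 1 RPKM or more, with Benjamini-Hochberg adjustment at 0.05 over all genes tested. The genotype and stage effects came from a fit with stage and genotype over all 8 libraries (4 residual degrees of freedom), and the comparison of iBEC and iHP libraries labelled L1L2_Alb and the F test from a fit of the 6 conditions (2 residual degrees of freedom). The scripts were tested on simulated data. The members and gene lists were chosen with earlier results of these data known. Genes named are the 6 keratins, *Lats1* and *Lats2*, in each partner list the genes called with genotype (up to 6, otherwise the 2 of highest mean), in each marker list the 2 of highest mean and the called gene of largest change, and the 5 closest in pattern to each keratin; others are said to be named after their values were seen.

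Alternatives were another pseudocount (0.1), upper-quartile scaling, quantile normalization, no filter, a filter at a mean of 5 RPKM, no trend in eBayes, averaged libraries of a condition, a replicate block, and leaving out single libraries or stages. Depth limits precision mainly for *Krt23* (63 to 244 reads). Promoter windows are RefSeq's, on GRCm38.p6. Neighbours of genes were taken from RefSeq order on GRCm38.p6, without coordinates.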

Additional observations from a re-analysis of the deposited data

Results flagged for a closer look

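Of 62 tested marker genes, 15 moved one way against their control in both iHP libraries labelled L1L2_Alb and the other way in both iBEC libraries (24.2%), beside 16% of all tested genes. No simple epithelial keratin was among them. The difference was not tested for single genes beyond the F test over all genes, which called 0 by limma (733 at an unadjusted p under 0.05), and within a stage both changes share 1 control library. Of the marker genes named by rule, 3 were among the 15. For *Apoa1*, of the hepatocyte list, the log2 change was 0.55 to 0.97 in iHPs and -0.61 to -0.08 in iBECs, a difference of -1.11. For *Lyz2*, the lysozyme gene of the macrophage list, it was -1.14 to -0.00083 in iHPs and 1.27 to 1.38 in iBECs, a difference of 1.89. For *Sprr1a*, a cornified envelope gene of the squamous list, it was -0.42 to -0.28 in iHPs and 0.75 to 1.96 in iBECs, a difference of 1.71. The 15 also held 4 of the 14 tested biliary markers, named after their values were seen. The claudin gene *Cldn7* was at -1.63 to -1.10 in iHPs and 2.58 to 2.60 in iBECs, *Ggt1* at -2.68 to -2.15 and 0.80 to 1.15, *Muc1* at -1.02 to -0.31 and 1.88 to 1.93, and *Prom1* at -0.998 to -0.994 and 0.90 to 0.95.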

How the results depend on the processing

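With 1 control library per stage, every genotype difference rests on that library, and leaving out a stage leaves few. The log2 fold change with genotype was above 0 for all 6 keratins in every alternative run. *Krt7* was called in 13 of 14 alternatives and *Krt19* in 11 of 14 (lost without iBECs, without iHPs and with no filter). The genotype fit called 1284 genes. It called 686 with no filter, 326 without the iHB stage and 132 without the iHP stage, and 793 to 1227 without single libraries (793 without L1L2_Alb iBEC replicate 2, 844 without iHP replicate 1). Keratins called were 1 with no filter, 5 with quantile normalization, 1 without iBECs and 0 without iHPs. Partner genes called fell from 4 to 2 and marker genes from 15 to 6 with no filter.

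Between iBECs and iHBs the count of 768 genes became 492 with no filter and 488 to 1739 without single libraries (lowest without L1L2_Alb iBEC replicate 2, highest without iHP replicate 2), and the 4 keratins became 1 with no filter and 1 without iBEC replicate 1. Between iBECs and iHPs 553 genes became 211 with no filter and 156 to 987 without single libraries (iHP replicate 1 and iHP replicate 2), with 233 without iBEC replicate 1 and 169 without iBEC replicate 2, and the 4 keratins became 0 with no filter, without iHP replicate 1 and without iBEC replicate 1. Between iHPs and iHBs, where 0 were called, 4 were called with a mean of at least 5 RPKM, 3 with upper-quartile scaling and 1 without iHP replicate 2. The cause of these shifts was not tested.

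For L1L2_Alb iBECs against iHPs, which share replicate numbers, the deviations of same-numbered libraries from their condition means correlated at -0.02 over genes. With 2 libraries per condition the deviations of the second mirror those of the first. This value therefore cannot decide whether the numbers pair them. The fit with the replicate block called 911 genes and 1 keratin (*Krt7*), against 492 and 0. Without single libraries the count was 0 to 126 (0 without either iHP library, 81 and 126 without an iBEC library), the lone library being assumed to vary like the others, and it was 0 with no filter. The F test without single libraries was added after seeing the data. Uncalled values that changed sign were *Lyve1* at 0.083 without iHP replicate 1 (-0.56 to 0.083 without single libraries), *Vwf* at 0.11 with a pseudocount of 0.1, 0.12 with quantile normalization, 0.15 without iHP replicate 2 (-0.17 to 0.15) and 0.30 without iHBs, *Lyz2* at -0.044 with quantile normalization and -0.52 without iBECs, *Sprr1a* at -0.26 without iBECs, *Ivl* at -0.11 without iHP replicate 1 (-0.11 to 0.87), *Krt23* between iBECs and iHBs at -0.019 without iBEC replicate 1 (-0.019 to 0.18), and *Krt18* between iHPs and iHBs at 0.065 with upper-quartile scaling.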

Other observations

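In RefSeq order the genes from *Krt71* to *Krt78* lie side by side in the type II keratin cluster, next to *Krt8* and *Krt18*. All 11 genes of this stretch, among them the epidermal keratins *Krt1* and *Krt2* and the hair follicle keratins *Krt71* to *Krt73*, were above 0 in control iHBs, at 1.04 to 1.86 RPKM, and in control iHPs, at 0.246 to 0.460 RPKM. These came from at least 740 reads over the 11 genes in control iHBs and at least 174 in control iHPs, taking the shortest gene length that gives whole reads. In control iBECs and in the 5 libraries labelled L1L2_Alb the median gene of the stretch was at 0 and no gene passed 0.362 RPKM. Levels within control iHBs were even along the stretch, within 2-fold of each other, while *Krt8* next to it was at 1774 RPKM. Of all genes listed, 23 were above 1 RPKM in control iHBs and under 0.1 RPKM in every library labelled L1L2_Alb, and 9 of them were in this stretch. Outside it, *Krt17* was at 2.23 RPKM in control iHBs, 0.638 RPKM in control iHPs and 0 to 0.139 RPKM in the libraries labelled L1L2_Alb. *Krt5*, beside *Krt71*, was at 1.28 and 0.228 RPKM in the same controls and 0.111 to 0.613 RPKM in the libraries labelled L1L2_Alb. Both were named after their values were seen. The 1122 olfactory receptor genes, silent in liver, averaged 0.0259 RPKM in control iHBs and 0.00825 to 0.0245 RPKM in the other libraries. The stretch was chosen after its values were seen, each control stage is 1 library, and no test was made.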
